A study of Bos taurus with 47 samples.

Results

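The ileum of Holstein cattle was described from 4 of 47 RNA sequencing libraries, those whose tissue label reads Ileum, against the unweighted mean of the other 14 tissue labels. The ileum libraries came from 2 males, called A and B here, and 2 females, called C and D, with 1 library per animal. The same 4 animals gave adipose tissue, frontal cortex, heart, kidney, liver, lung, muscle, rumen and spleen. Ovary and uterus came from female C and female D, the lactating mammary gland from female C, the dry mammary gland from female D and lymphocytes from a further male, with 1 library each. All animals were Holstein, and the labels name no treatment, age or place along the ileum. Each animal is a separate sample, so the spread between ileum libraries is a spread between animals, with whatever part of the gut wall was taken.

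The ileum is the last stretch of the small intestine. Its inner face is a folded epithelium whose absorptive cells carry a brush border of transporters and digestive enzymes, mixed with mucus-secreting and hormone-secreting cells. Lymphoid follicles, called Peyer's patches, lie beneath that epithelium, and smooth muscle and nerve plexuses form the outer wall. A piece of ileum is therefore a mixture of cells, and in bulk RNA fewer cells of a type and less RNA per cell cannot be told apart. Kidney tubules also carry a brush border, liver and kidney share many transporters and metabolic enzymes with the gut, and spleen and blood lymphocytes share the immune cells of the follicles. These statements are background and were not measured here.

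Values are FPKM (fragments scaled to transcript length and to library size) for 24616 Ensembl gene identifiers, which are not paired with gene names. No name could be given to an identifier, so the ileum label was not checked against known marker genes. Identifiers are described by their level in each ileum library and by the other tissue in which they were most abundant, and just 4 are printed. Differences are on the log2(FPKM + 1) scale, where a difference of 1 is close to a doubling for abundant identifiers and where the change of scarce ones is understated. An identifier was called higher or lower where the limma adjusted p was under 0.05 and the difference was at least 2, which is 4-fold.

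The ileum libraries held between 12928 and 13606 identifiers at 1 FPKM or more, with the lowest number in female C. Their summed FPKM lay between 662904 and 716832, and their 10 most abundant identifiers took 7.322% to 8.320% of it. No read counts are part of the table. Steps in the low values gave a depth relative to one another of 0.9044 for male A, 1.046 for male B and female C, and 1.01 for female D. The ileum library of female C was 1 of 10 libraries, 9 of them from that cow, that lacked the low level of liver and rumen transcripts seen in the other 37. Muscle transcripts were not part of that split, and among the 10 they reached 76.33 ppm in the lymphocyte library. Its liver, rumen and muscle identifiers stood at 13.5, 0 and 3.259 ppm of what the source tissue had. In the other 3 ileum libraries the same values were 119.8 to 274.9, 97.6 to 419.5 and 120.4 to 702.4.

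Ileum against the other 14 labels gave 1101 identifiers higher and 23 lower among 16634 tested. That is 6.62% of those tested in the upward direction and 0.138% in the downward direction. Of the 1101, 541 had a higher mean in ileum than in every other label, and 194 were higher in all 4 ileum libraries than in all 43 others. None of the 23 lower identifiers was lower in all 4 ileum libraries than in all others. Over all 16634 tested, whatever the size of the difference, 257 had all ileum libraries above all others and none had all below. The median difference over all tested identifiers was 0.304, so on the values as deposited a typical identifier was slightly higher in ileum. Under quantile normalisation, which gives every library the same distribution, that median was -0.177, the opposite sign. That setting left 700 higher and 75 lower, and 699 of the 700 were among the 1101. With animal as a block and the lymphocyte library left out, 1142 were higher and 44 lower. The fit gave all labels a shared variance, while the ileum libraries had 2.45 times the variance of the others. With a separate variance for ileum, an alternative chosen after seeing the data, 1101 were higher and 21 lower. The SE of the largest difference was then 0.57 rather than 0.38. SEs and adjusted p printed below rest on the shared variance.

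A pair of identifiers led the list with even levels in the 4 animals. ENSBTAG00000005759 stood at 3084 FPKM in male A, 3345 in male B, 2635 in female C and 2108 in female D. Its mean was 2793 ± 542.5 FPKM (SD, n = 4), and the next label, spleen, had a mean of 23.52 FPKM with 49.89 in its highest library. The difference from the mean of the other labels was 10.68 ± 0.38 (SE, limma adjusted p = 1.111e-23). ENSBTAG00000007135 stood at 1510, 2071, 1691 and 1612 FPKM in the same order of animals, while no library outside the ileum exceeded 2.191 FPKM. Its difference was 10.47 ± 0.23 (SE, limma adjusted p = 1.246e-30). All 4 ileum libraries lay above all 43 others for both, and the animals differed by 1.587-fold in the former and 1.371-fold in the latter.

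Below these, even and uneven identifiers alternated. The one ranked 4 by difference was even, with 1671 FPKM in male A, 2488 in male B, 1484 in female C and 1654 in female D, and rumen came next with 83.69 FPKM. The one ranked 5 was also even, at 649.6, 1014, 1128 and 1094 FPKM, against at most 0.9211 FPKM in any other library. In contrast, the identifier ranked 6 stood at 201.6 FPKM in male A, 632 in male B, 4445 in female C and 1712 in female D, a 22.06-fold range inside the ileum. Every other label averaged under 1 FPKM for it, liver being the highest at 0.9296. The identifier ranked 7 ranged wider, from 153.4 FPKM in male A and 612.6 in male B to 7793 in female C and 2814 in female D, with ovary next at 22.69 FPKM.

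Rank 9 broke this pattern, since its low library was male B. It stood at 3570 FPKM in male A, 56.12 in male B, 2097 in female C and 2178 in female D, and the highest library of any other tissue, a rumen one, held 6.52 FPKM. Rank 8 leaned to the males, with 1083 FPKM in male A and 1391 in male B against 480.7 in female C and 588.9 in female D. Over the 30 identifiers with the largest difference, 26 had all ileum libraries above all others, against 257 of all 16634 tested. The ranking makes this likely, as each of the 30 had a difference of at least 7.16. Among the 30, 8 kept the 4 animals within 2-fold and 10 spread over 10-fold or more. Of these 30, 21 were highest in female C and 22 lowest in male A.

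**Figure D1:**
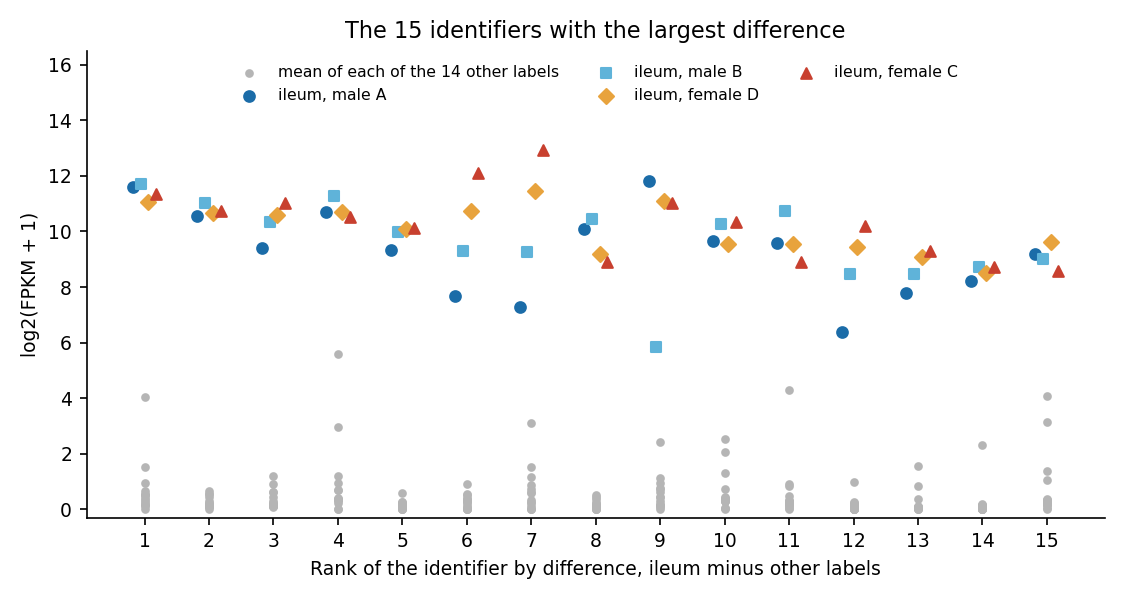
The 15 identifiers with the largest difference, by rank on the horizontal axis, with log2(FPKM + 1) on the vertical axis. Coloured symbols are the 4 ileum libraries and grey points the mean log2 value of each of the 14 other labels; ranks 1, 2, 4 and 5 sit close together, while ranks 6, 7, 9 and 12 spread over several units and still lie above every grey point.

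The most abundant identifiers in ileum were mostly abundant elsewhere too. The first by mean level had 3713 FPKM in male A, 6575 in male B, 11600 in female C and 7895 in female D, and the spleen mean was 7817 FPKM. It was called higher in ileum, with a difference of 2.23 ± 0.17 (SE, limma adjusted p = 4.986e-14), although 9 libraries of other tissues were above the lowest ileum library. The second, at 6080, 6643, 4811 and 7401 FPKM, was also below the spleen mean of 7776 FPKM. Of the 15 most abundant, 4 were called higher and 13 kept the animals within 2-fold. In 12 of them the lowest library was that of female C.

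A single identifier of those 15, ranked 12, was higher in ileum than in every other label. It had 3531 FPKM in male A, 1049 in male B, 3033 in female C and 7206 in female D, and the lymphocyte library, next in order, had 690 FPKM. All ileum libraries were above all others, with a difference of 6.76 ± 0.53 (SE, limma adjusted p = 1.642e-13). Its high library was that of female D, unlike most of the uneven identifiers. The other 14 of the 15 had at least 1 label with a higher mean than ileum.

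A stricter description kept the 197 identifiers whose ileum mean reached 1 FPKM and was 4 times or more that of each other label. This is a cut on means without a test, and as the mean is arithmetic, an identifier can pass through 1 high library. They took 3.677% of the summed FPKM in male A, 4.293% in male B, 9.565% in female C and 6.481% in female D. In summed FPKM this was 24372, 30776, 63789 and 43747. The lowest and highest ileum library thus differed by 2.617-fold in the total level of the tissue's own identifiers. In 129 of the 197 (65.48%) the highest library was that of female C, against 20.6% of the 13500 identifiers with a mean of at least 1 FPKM in ileum. The full order, lowest in male A, then male B, then female D and highest in female C, was found in 94 (47.72%), against 11.86% of the 13500. The reverse order was found in 1, against 23.6% of the 13500. This order was noticed in these data and is used as a description.

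Of the 197 enriched identifiers, 45 were steady, with an SD under 0.5 on the log2 scale over the 4 animals. Their summed level was 9569 FPKM in male A, 12182 in male B, 10271 in female C and 9644 in female D. All 45 were higher in all ileum libraries than in all others, which the cut on means and the small SD make likely. A further 102 (51.78%) were wide, with an SD of at least 1, against 5.148% of the 13500. The cut that gave the 197 favours wide members, since 1 high library can carry the mean, so these shares are not a like comparison. The wide ones summed to 9464 FPKM in male A, 10239 in male B, 43337 in female C and 26320 in female D, a 4.579-fold range. The split was made on the SD over these same libraries, so the like sums of the first set and the unlike sums of the second are fixed by it. Among the wide ones, 56 were still higher in all ileum libraries than in all others, against 257 of all 16634 tested, though the cut on means favours this.

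The spread among the ileum libraries was the widest of the 10 tissues with 4 libraries. The median SD of an identifier was 0.327 on the log2 scale in ileum, 0.25 in adipose tissue, 0.244 in lung, 0.24 in heart and down to 0.173 in frontal cortex. An SD of at least 1 was reached by 695 identifiers in ileum and 243 in adipose tissue, the next in order by the median. A single direction, the first principal component over the 4 libraries, took 76.79% of the variance between ileum libraries, with weights of -0.64 for male A, -0.25 for male B, 0.17 for female D and 0.71 for female C. In the other 9 tissues it took between 38.1% and 66.97%. Without the library of female C the median SD of ileum was 0.225, which is rank 4 among the 10 tissues. The other 9 tissues kept 4 libraries there, so the SDs are not over like numbers. Even so, 464 ileum identifiers had an SD of at least 1, above the 243 of adipose tissue, the most in any other tissue. Without any other single ileum library the median SD of ileum was 0.311 to 0.363 and stayed in first place.

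**Figure D2:**
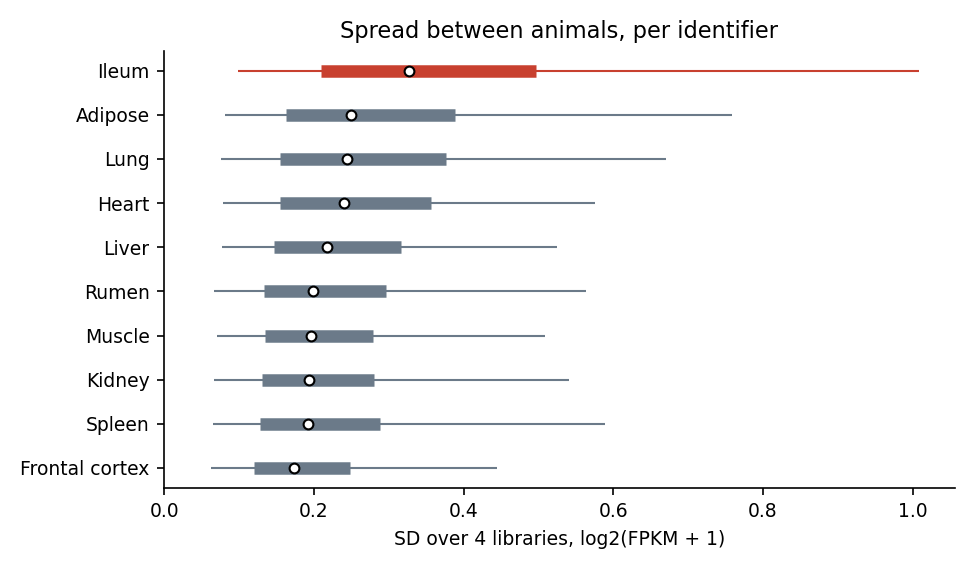
SD of log2(FPKM + 1) over the 4 libraries of each tissue, for identifiers with a mean of at least 1 FPKM there. The white point is the median over identifiers, the thick bar the middle 50% and the thin line the 5th to 95th percentile; ileum has the highest median, 0.327, and frontal cortex the lowest, 0.173.

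Pairs of ileum libraries showed which animals stood apart. Between male A and female C, 814 identifiers differed by at least 4-fold on the log2(FPKM + 1) scale, 399 did so between male B and female C, and 346 between male A and female D. The closer pairs had 155 (male A and male B), 126 (male B and female D) and 67 (female C and female D). In the other 9 tissues, 54 pairs of libraries had 17 to 166 such identifiers, with a median of 48.5. The Spearman correlation across identifiers, which are not independent replicates, was 0.902 between male A and female C and 0.941 to 0.973 for the other ileum pairs. The closest library of another tissue was a spleen library for male A (0.886), male B (0.867) and female D (0.841), and the dry mammary gland for female C (0.803). Over label means, spleen was closest to ileum at 0.845, and frontal cortex was farthest at 0.579.

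To see which kinds of transcript differed between the 4 ileum libraries, groups of identifiers were built without the ileum. Each group averaged 1 FPKM or more in 1 label, or in each of a pair of labels, and there exceeded all remaining labels but ileum by 4 times or more. A pair group and the group of a single label can share identifiers, so the groups are not separate lists. The groups were chosen after the identifiers had been seen and are described by counts alone. By construction their members are low in most labels, so a moderate level in ileum can be called higher.

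The kidney group had the widest range. Its 234 members, which mark kidney among the 14 other labels, summed to 1473 FPKM in the ileum of male A, 5294 in male B, 23597 in female C and 11524 in female D. That is a 16.02-fold range. The kidney itself had a sum of 61382 FPKM, and no label outside kidney and ileum exceeded the 1986 FPKM of liver. Of 232 tested, 37 (15.95%) were called higher in ileum and 1 lower, against 6.62% and 0.138% of all tested. The range was carried by a part of the group, as 62 members reached 10 FPKM in female C and 37 in male A, and the median member was low in every ileum library. By member, 85 of the 234 were highest in female C and 71 in male A, against 20.6% and 41.6% of the 13500. The leading member had 33.86 FPKM in male A, 476.3 in male B, 3985 in female C and 2499 in female D, with a kidney mean of 20.18 FPKM. Another stood at 33.66, 571, 2431 and 1182 FPKM against 1985 FPKM in kidney, so that female C was above the kidney mean and male A far below it.

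A smaller set was defined by ileum and kidney together, with an arithmetic ileum mean, so members can enter through 1 high ileum library and the values below describe the set without supporting the range. The 34 identifiers whose ileum and kidney means were both at least 4 times that of every remaining label summed to 531 FPKM in male A, 3557 in male B, 18992 in female C and 9114 in female D, and to 6611 FPKM in kidney. In 32 of them female C was highest, in 33 of them male A was lowest, and 31 followed the full order. The median ratio of female C to male A was 30.46, and the median ratio of male B to male A, both males, was 5.636. In the 4 kidney libraries the median ratio of the highest to the lowest animal was 1.399 for the same identifiers. In female C, 22 of the 34 exceeded their kidney mean, and 3 did so in male A.

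**Figure D3:**
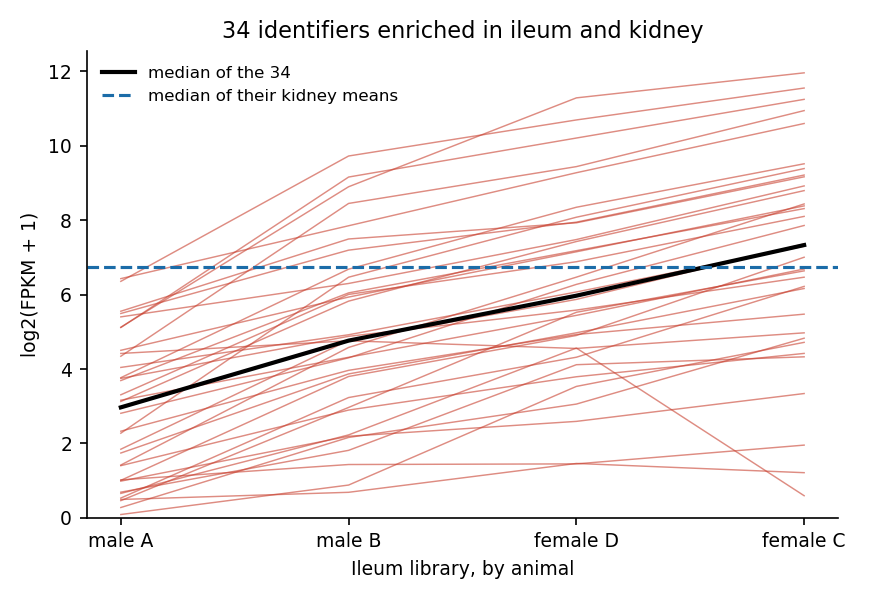
The 34 identifiers at least 4 times higher in ileum and kidney than in every remaining label, each a thin line over the 4 ileum libraries, with log2(FPKM + 1) on the vertical axis. Animals are placed by the order found in most of these identifiers; the black line is their median and the dashed line the median of their kidney means, which the black line passes only at female C.

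The sums of identifiers shared with liver and rumen were also highest in female C. The 172 members of the kidney and liver group summed to 1372 FPKM in male A, 2355 in male B, 7718 in female C and 3959 in female D, and 40 of them (23.26%) were called higher in ileum. One of them had 7.997 FPKM in male A, 92.4 in male B, 717.4 in female C and 206.1 in female D, with 1008 FPKM in kidney. The 272 liver identifiers summed to 1925, 2721, 4788 and 3327 FPKM, with 32 of 271 (11.81%) called higher. The 238 rumen identifiers summed to 3980, 6654, 7425 and 5543 FPKM, with 40 of 236 (16.95%) called higher, so male B came close to female C there. That rumen sum includes the identifier ranked 4 by difference above, with 2488 FPKM in male B and 83.69 in rumen. It also includes one at 761.1, 1703, 476.5 and 749.3 FPKM, with 21.12 in rumen. Both were highest in male B and far lower in rumen than in ileum. All 3 shares stand beside 6.62% called higher over all tested identifiers. By member, both the liver and the rumen group had more identifiers highest in male A than in female C. Of the 272 liver identifiers 124 were highest in male A and 72 in female C, and of the 238 rumen identifiers 88 and 72. The sums thus rest on the abundant members. Over the 13500 identifiers with a mean of at least 1 FPKM in ileum, 41.6% were highest in male A and 20.6% in female C. The median member of the liver and of the rumen group was under 1 FPKM in every ileum library, unlike those 13500. The low-level liver and rumen transcripts described above were also highest in male A, at 274.9 and 419.5 ppm. In female C they were lowest, at 13.5 and 0 ppm. Their part in the counts by member was not tested. The rumen, a fermentation chamber lined by a layered epithelium, is the other sampled part of the digestive tract.

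The lymphocyte and spleen group had its highest sum in male A and its lowest in female C. The 129 identifiers shared by lymphocytes and spleen summed to 8428 FPKM in male A, 7051 in male B, 3392 in female C and 5393 in female D. Of these, 70 (54.26%) were called higher in ileum and none lower (6.62% and 0.138% of all tested), with a median difference of 2.20 over the 129, against 0.304 over all identifiers tested. Ileum stood above every label outside the defining pair in 119 of them, and the median member reached 45.6% of its mean in the defining pair. The highest library was that of male A in 71 and that of female C in 4, and 50 (38.76%) showed the reverse order, with female C lowest, then female D, then male B. Over the 13500 identifiers, 41.6% were highest in male A, 20.6% in female C, and 23.6% had the reverse order. The leading member had 1955 FPKM in male A, 1484 in male B, 537.4 in female C and 915.5 in female D, against 9469 FPKM in spleen. Without female C 78 of the 129 were called higher, without male A 64, and 50 were called under quantile normalisation.

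The spleen group, which shares members with the lymphocyte and spleen group, was more even. Its 130 members summed to 13831, 11841, 9262 and 13010 FPKM, a 1.493-fold range, and 28 of 127 (22.05%) were called higher. The leading member of the lymphocyte and spleen group is also in the spleen group. That sum includes ENSBTAG00000005759, which the rule placed in the spleen group for its trace there. Lymphocyte identifiers summed to 2145, 1835, 1133 and 1665 FPKM, with 21 of 143 tested (14.69%) called higher. The share called higher over all tested identifiers was 6.62%. Over these 3 groups the library of female C had the lowest sum and that of male A the highest.

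The adipose group separated male A from the rest. Its 66 members summed to 2054 FPKM in male A, 565 in male B, 369 in female C and 495 in female D, and 58 were highest in male A. The median member stood at 2.96 in male A on the log2(FPKM + 1) scale, against 1.28, 0.63 and 1.20. Its leading member had 365.9 FPKM in male A, 2.207 in male B, 0.4669 in female C and 1.096 in female D, with an adipose mean of 3819 FPKM. In the other 8 tissues from these 4 animals outside adipose tissue, the adipose sum was highest in male A in 5, with a range of 1.081-fold to 2.587-fold between animals. The largest of these ranges was in rumen, where male A had 1643.2 FPKM and the other 3 animals 635.1 to 682.5. The part of the adipose identifiers in the other differences of male A was not tested.

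The same groups were followed in the other tissues of these animals. The kidney identifiers summed to within 1.062-fold to 1.578-fold between the animals in each of the 8 tissues outside ileum and kidney, against 16.02-fold in ileum, and were highest in female C in 4 of the 8. The lymphocyte and spleen identifiers ranged over 1.053-fold to 2.251-fold in the 8 tissues outside ileum and spleen, up to 2.251-fold in adipose tissue and 2.181-fold in lung against 2.485-fold in ileum, and were highest in male A in 2 of them and in female C in 2. In lung these identifiers were highest in female C, at 2360.7 FPKM against 1082.5 in male A, which is the reverse of the ileum.

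Some groups tied to other tissues were low and even in ileum. The 109 identifiers shared by heart and muscle summed to 616 to 737 FPKM against 194030 in the source tissues, with none called in either direction. The 986 frontal cortex identifiers summed to 2867, 2844, 2375 and 2929 FPKM, and 17 of 983 tested (1.729%) were called higher. The lung identifiers were less even, at 535 FPKM in male A, 643 in male B, 1376 in female C and 892 in female D, and the dry mammary gland identifiers ran from 773 FPKM in male A to 2254 in female C. The ovary group had a wide sum, from 1084 FPKM in male A to 10476 in female C, that rested on few members. Its leading member is the identifier ranked 7 above, with 7793 FPKM in female C, and its second had 8.513 FPKM in male A, 6.859 in male B, 1347 in female C and 386.1 in female D against 3590 FPKM in ovary.

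**Figure D4:**
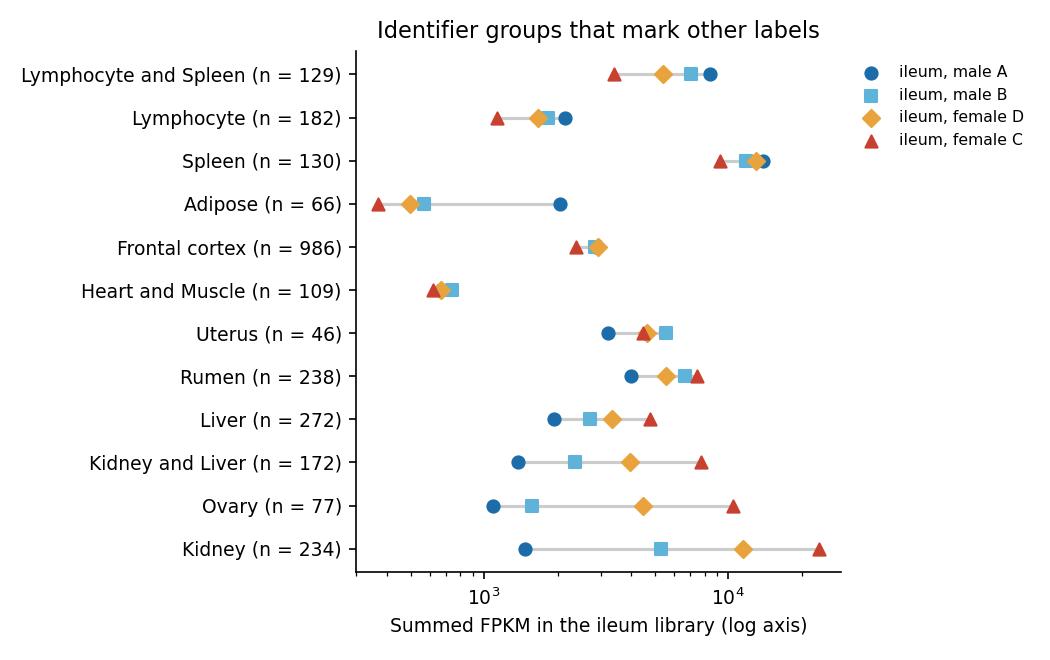
Summed FPKM in each ileum library (log axis) of 12 groups of identifiers that mark other labels, with the number of members in brackets. The kidney group runs from 1473 in male A to 23597 in female C, the lymphocyte and spleen group from 3392 in female C to 8428 in male A, and the adipose group has male A alone at 2054.

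The identifiers called lower in ileum were few, and ileum was seldom the lowest label. ENSBTAG00000037651 had 5.148 FPKM in male A, 12.43 in male B, 12.13 in female C and 9.704 in female D, against 3871 FPKM in rumen. Its difference was -2.90 ± 0.22 (SE, limma adjusted p = 3.930e-14), yet 3 labels had a lower mean than ileum. ENSBTAG00000007273 had 2.875, 1.512, 0.08324 and 1.405 FPKM against 8932 FPKM in liver, with a difference of -2.68 ± 0.43 (SE, limma adjusted p = 1.395e-06). Here too 3 labels had a lower mean than ileum.

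Of the 23, ileum was the lowest label in 1 and had at most 1 lower label in 4. All ileum libraries were under 1 FPKM in 6. No identifier reached a mean of at least 1 FPKM in every other label while ileum was 4 times or more below each of them. Within the ileum, 16 of the 23 were highest in male A and 15 lowest in female C, against 41.6% and 59.57% of the 13500. The identifier ranked 4, which reached 39740 FPKM in rumen, had 24.41 FPKM in male A, 7.09 in male B, 1.238 in female C and 7.426 in female D, and was called lower with a limma adjusted p of 2.090e-05. Without the ileum library of female C its difference was -1.89 ± 0.5 (SE), short of the 4-fold threshold, and 14 identifiers were called lower. With the 37 libraries that hold low-level liver and rumen transcripts alone, its difference was -2.02 and 33 were called lower.

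Set against single tissues, the ileum differed in both directions. Against spleen, the closest label, 878 identifiers were higher (5.28% of 16634) and 294 lower (1.77%), and 713 and 402 under quantile normalisation. Among them, 853 of the higher and 269 of the lower ones kept the 4 ileum libraries apart from the 4 spleen libraries, which the 4-fold threshold makes likely. Over all 16634, 22.14% had all ileum above all spleen libraries and 13.31% all below.. The 129 lymphocyte and spleen identifiers had a median difference of -1.16 from spleen, with 19 (14.73%) called lower and none higher. The spleen group itself had a median of -2.18 and 77 of 127 (60.63%) lower. Both groups were chosen for a high level in these same spleen libraries, which makes lower calls likely. The identifier second in order among those lower than in spleen had 10.4, 9.044, 1.255 and 6.646 FPKM in ileum against 1129, 1319, 1405 and 1428 FPKM in spleen (difference -7.63 ± 0.47, SE).

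Against kidney, 1474 identifiers were higher in ileum (8.86%) and 901 lower (5.42%). Most of the kidney group was lower in ileum, 178 of 232 (76.72%), despite the high levels of some members in female C, and 3 were higher. The group was chosen for a high level in these same kidney libraries, which makes lower calls likely. The first in order among identifiers lower than in kidney had 2.187, 2.151, 1.159 and 1.928 FPKM in ileum. In kidney it had 6036 to 6884 FPKM, a difference of -11.13 ± 0.51 (SE). Of all 234 kidney identifiers, 109 (46.58%) were under 1 FPKM in all 4 ileum libraries. Against rumen, 1479 were higher (8.89%) and 467 lower (2.81%), and 888 and 648 under quantile normalisation. Among the 236 rumen identifiers tested, 178 (75.42%) were lower and 6 higher. These were likewise chosen for a high level in the same rumen libraries. Of the 193 enriched identifiers tested, 163 were called higher against spleen, 163 against kidney and 161 against rumen, contrasts that share the ileum libraries. The cut that defines these identifiers includes all 3 tissues and largely fixes those counts.

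The 20 identifiers with the widest spread, among those with a mean of at least 10 FPKM in ileum, fell into several patterns. The first was restricted to the ileum and nearly silent in a single animal, with 0.6178 FPKM in male A, 1793 in male B, 579.1 in female C and 605.1 in female D. No library of another tissue exceeded 0.6945 FPKM for it. The sixth was similar, listed at 0 in male A and at 121.7, 150.5 and 88.82 FPKM in the others, with at most 0.9066 FPKM elsewhere. Neither could be compared with other tissues of male A, since no other tissue reached 1 FPKM.

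Other wide identifiers split the animals the same way in other tissues. The fifth had 257.6 FPKM in male A and 175.7 in female C, against 0.9474 in male B and 2.654 in female D. In spleen it stood at 363.9 and 399.9 FPKM in male A and female C against 1.981 and 3.423 in the other animals, and 9 of 9 tissues showed the same split. The seventeenth was seen in female D alone, at 52.31 FPKM against at most 0.08976 in the other ileum libraries, and 9 of 9 other tissues showed that too. The eighth was low in male A, at 0.08982 FPKM against 44.11 to 152.3, and 6 of the 7 other tissues that reached 1 FPKM had the same split. For these 3 the split between animals was thus not particular to the ileum.

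A further 5 of the 20 had adipose tissue as the next label and were high in male A, as the adipose group was. Kidney was the next label for 6. These included the tenth, which is the leading kidney member given above, and the ninth, with 3.84 FPKM in male A, 87.5 in male B, 668.9 in female C and 269.6 in female D against 147.7 FPKM in kidney. Over the 20, the highest library was that of female C in 10, of male A in 7, of female D in 2 and of male B in 1. Of the 20, 11 were called higher in ileum against the other labels despite their spread.

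**Figure D5:**
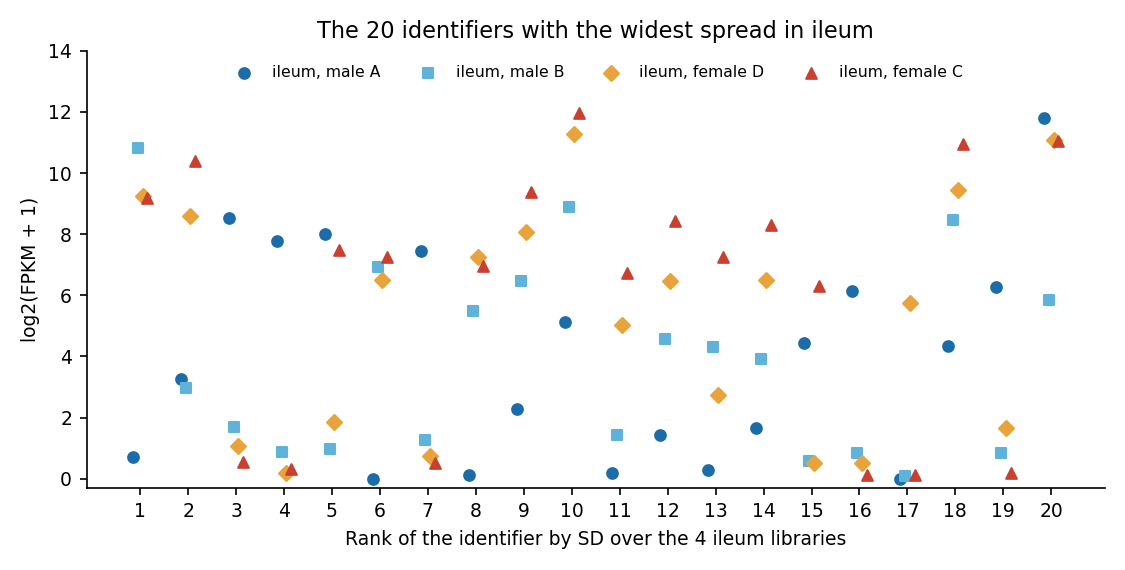
The 20 identifiers with the largest SD over the 4 ileum libraries, by rank, with log2(FPKM + 1) of each library on the vertical axis. At ranks 3, 4, 7, 16 and 19 the library of male A stands alone at the top, at ranks 1, 6 and 8 it stands alone at the bottom, and at ranks 5 and 15 the libraries of male A and female C are both above the other pair.

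Among all 695 identifiers with an SD of at least 1, 393 were highest in female C and 215 in male A. For those highest in female C the next label was kidney in 28.5%, liver in 17.81% and rumen in 13.23%, against 9.378%, 3.326% and 4.963% of the 13500. For those highest in male A it was lymphocyte in 40.47% and adipose tissue in 11.63%, against 25.01% and 3.533%. The wide identifiers of these 2 libraries thus differed in their next label. That label is the highest other mean, whatever its level, and need not be a tissue that shares the identifier. The one ranked 13 by spread, for example, counts under kidney at 0.1212 FPKM.

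Sex coincides with this order, since males A and B lie at one end of the order and females D and C at the other. With 2 animals of each sex, sex and the single animals cannot be told apart. In a fit over the 40 libraries of the 10 shared tissues, 2517 identifiers (15.3% of 16503) were higher in the male ileum and 1488 (9.02%) in the female ileum, with a limma adjusted p under 0.05 and no minimum difference. Under quantile normalisation the counts were 2033 and 1915. This fit gives all tissues a shared variance, while the ileum libraries varied 2.1 times as much as the others. With a separate variance for ileum, an alternative chosen after seeing the data, 998 and 753 were called, and with the 4 ileum libraries alone 160 and 65.

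A sex call already places both animals of 1 sex on the same side. Of those higher in males, 1801 (71.55%) had male A highest, then male B, female D and female C, against 63.1% of the 5049 identifiers with both males above both females. Of those higher in females 1139 (76.55%) had the opposite order, against 57.42% of the 2788 with both females above both males. Among the 193 enriched identifiers tested, 124 (64.25%) were higher in females and 12 (6.218%) in males. Of 232 kidney members tested, 61 were higher in females and 7 in males, and of 129 in the lymphocyte and spleen group 8 and 51. Of 66 adipose identifiers, 26 were higher in males and none in females, although male B was low. Over all 16503 tested, 9.02% were higher in females and 15.3% in males. The largest female excess was the second ovary identifier given above, with a male minus female difference of -6.38 ± 0.48 (SE, limma adjusted p = 9.526e-10), where both females were above both males.

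The largest male excess rested on a single animal. It is the leading adipose identifier, with a male minus female difference of 4.29 ± 1.14 (SE, limma adjusted p = 7.291e-03), and 0.87 ± 0.72 (adjusted p = 5.274e-01) without male A. The second, by contrast, was high in both males, at 90.19 and 96.54 FPKM against 4.023 in female C and 4.694 in female D, a difference of 4.14 ± 0.88 (SE, limma adjusted p = 1.124e-03). The counts for sex moved with single libraries. Without female C, 709 were higher in males and 581 in females, while 1093 and 710 were called without male A, and 3905 and 1652 without female D.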

How the data were processed

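RNA of 47 tissue samples was sequenced as paired reads of 150 bases, per the labels' protocols. Trimmomatic 0.39, STAR, Cufflinks and the assembly UMD 3.1 are listed in the submitters' processing notes. Settings and gene annotation are not given in the sources used here. In 1 table the authors deposited FPKM values, normalised to transcript length and library size. Of its columns, 47 matched a sample and 4 did not and were not used. FPKM holds no counts, so counting intervals were not computed.

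Here log2(FPKM + 1) was fitted with limma 3.58.1 in R 4.3.3, with 1 mean per label, an intensity trend and Benjamini-Hochberg adjustment, over identifiers that reached 1 FPKM in 2 or more libraries. Calls needed an adjusted p under 0.05 and, between tissues, a difference of at least 2. The fit was tested on simulated data. Tables and plots used Python 3.11.15, pandas 2.3.3, numpy 2.4.6 and matplotlib 3.10.9.

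The 4 animals pair the libraries across tissues, as their numbers in the labels show. Deviations of same-animal libraries from their tissue means had a median correlation of 0.182 over 180 pairs. The block was run without the lymphocyte library, whose animal gave no other.

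Identifiers were described by rank: 15 by abundance, 30 higher and 20 lower by difference (10 per direction without overlap), 20 by SD and 10 per direction for sex. No identifier matched a symbol (0 of 24616), so the marker lists written by gene symbol were not used and no sequence is shown. At most 2 identifiers per direction are printed. The comparison, the groups and the lists were chosen with earlier results of these data known.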

Additional observations from a re-analysis of the deposited data

Results flagged for a closer look

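A library of the ileum was marked where it lay far from the other 3, by the gap to its nearest neighbour over the whole range. Of 75 sets of 4 values examined, 9 were marked. Chance marks about 1 in 20 sets, but 7 of the 9 are identifiers chosen for their wide spread over these same values, so that rate does not apply to them. Male A was far above the others for the summed adipose identifiers (2054 FPKM) and for the identifiers ranked 3 (365.9 FPKM), 4 (220.6 FPKM), 7 (173.8 FPKM), 16 (69.27 FPKM) and 19 (77.03 FPKM) by spread. Adipose tissue was the next label for all 5 of these identifiers. Female C was far below the others for the summed frontal cortex identifiers (2375 FPKM) and far above them for the identifier ranked 13 (150.6 FPKM), which stayed under 1 FPKM in every library outside the ileum. Female D alone carried the identifier ranked 17 (52.31 FPKM).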

How the results depend on the processing

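Of 153 counts and medians recomputed under other settings, 126 stayed within 1.5 times the value given and 27 did not; no difference of a ranked identifier reversed. The leading male excess lost its call in 4 settings and the lower identifier ranked 4 in 1. A pseudocount of 0.1 gave 2042 higher and 109 lower against all labels, 1503 and 550 against spleen, 2528 higher against kidney, 2668 higher against rumen, and 1103 identifiers with an SD of at least 1. Quantile normalisation gave 700 higher and 75 lower against all labels and 888 higher against rumen. A minimum difference of 1 gave 3180 higher and 349 lower. The 23 lower identifiers became 14 to 34 without single ileum libraries, 37 without the lymphocyte library, 44 with animal as a replicate block as well, and 77 with the 10 tissues of 4 libraries alone. For sex, separate variances gave 998 and 753, ileum alone 160 and 65, and the 37 libraries with low-level liver and rumen transcripts 665 and 515. Leaving out single ileum libraries gave 709 to 3905 higher in males and 581 to 1652 higher in females. The cause was not tested. No paired fit was possible for sex, since each animal has 1 sex; the replicate block changed no other count by over 1.5 times. Depth in fragments is unknown, so levels near 0 carry an unknown counting error.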

Other observations

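The lactating mammary gland group, defined by 1 library, showed 1 animal apart from the other 3 in the ileum by its median member, but not by its sum. Of its 36 identifiers, 18 were highest in female D, the cow whose mammary gland was dry, against 2507 of the 13500. The median member stood at a low 1.31 on the log2(FPKM + 1) scale there, against 0.01 in male A, 0.05 in male B and 0.00 in female C. The group summed to 347 FPKM in male A, 507 in male B, 695 in female C and 683 in female D. The leading member was ileum-restricted beyond that gland, with 186.9 FPKM in male A, 329.6 in male B, 404.2 in female C and 401.4 in female D. The third had 88.55 FPKM in male A and 73.04 in male B against 6.938 in female C and 12.13 in female D, with 294 FPKM in the lactating gland. Uterus identifiers, 46 in all, summed to 3204 FPKM in male A, 5570 in male B, 4467 in female C and 4640 in female D, so the highest and the lowest library were both from males.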
